A study of Homo sapiens with 12 samples.

Results

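HMOX1 and 9 further genes of the NRF2 response to oxidative stress were followed in Z138 cells given a degrader of BAF chromatin remodelling complexes or its vehicle. HMOX1 was chosen by its rise under the degrader, so its values are given as a description with no test. The other 9 genes (NFE2L2, KEAP1, BACH1, NQO1, GCLC, GCLM, TXNRD1, FTH1 and FTL) were taken as known regulators and targets of the pathway, to see which of them moved with it. They too were chosen with earlier results of these data known. All 10 were found by symbol among 20318 gene entries, each with 1 entry, and all were among the 12721 entries with at least 1 CPM (counts scaled by the total of each library) in at least 3 libraries, which were tested.

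Z138 is an established human mantle cell lymphoma line, labelled here as a wild-type lymphoblast line. The cells received 0.5 µM AU-15330 or its DMSO vehicle for 8 h or 24 h. AU-15330, a PROTAC degrader, removes the BAF ATPases SMARCA2 and SMARCA4 together with PBRM1, a subunit of PBAF. According to the labels there are 3 samples in each of 4 groups, but at 8 h the labels of DMSO replicates 2 and 3 both give the same data column, so that group holds 2 libraries (replicate 1, and a library called here replicate 2 or 3), the other groups hold 3, and 11 libraries were used. Each time is a batch of its own in the labels, so time and batch cannot be told apart, and AU-15330 was compared with DMSO of the same time. A single line was used. Nothing in the labels ties replicates to separate cultures, and every p-value here rests on a spread that may be technical. Estimated total counts were 50765322 to 67572344 per library.

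NRF2, encoded by NFE2L2, is a transcription factor that pairs with small MAF proteins at antioxidant response elements. KEAP1 binds NRF2 in the cytoplasm and hands it to a CUL3 ubiquitin ligase, and oxidants or electrophiles that modify KEAP1 let NRF2 build up without any need for more NFE2L2 mRNA. BACH1 is a heme-binding repressor that occupies many of the same elements, that of HMOX1 above all, and leaves them when heme binds it. HMOX1 encodes heme oxygenase 1, which splits heme into biliverdin, carbon monoxide and iron. SMARCA4, which AU-15330 degrades, is known from other cells as a partner of NRF2 at HMOX1.

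An element core (TGACNNNGC, searched on both strands) was looked for in the 250 bases before a RefSeq start of each gene, in promoter windows on GRCh38.p14. Windows were found for 8 of the 10 genes, and 2 of them, GCLM and TXNRD1, held a match. Of all 35116 windows of that length, 3830 (10.9%) held one. Both are printed here because they are targets of the pathway that carry the core close to the start. They are printed 5′ to 3′ on the strand of the gene, with the match in capitals, at chr1:93909431-93909680 on the minus strand for GCLM and chr12:104215529-104215778 on the plus strand for TXNRD1.
GCLM: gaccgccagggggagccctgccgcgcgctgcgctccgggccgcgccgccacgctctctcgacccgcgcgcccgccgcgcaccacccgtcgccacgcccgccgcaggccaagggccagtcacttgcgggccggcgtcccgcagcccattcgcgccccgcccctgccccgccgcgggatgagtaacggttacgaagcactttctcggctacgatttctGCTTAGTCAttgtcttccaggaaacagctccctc
TXNRD1: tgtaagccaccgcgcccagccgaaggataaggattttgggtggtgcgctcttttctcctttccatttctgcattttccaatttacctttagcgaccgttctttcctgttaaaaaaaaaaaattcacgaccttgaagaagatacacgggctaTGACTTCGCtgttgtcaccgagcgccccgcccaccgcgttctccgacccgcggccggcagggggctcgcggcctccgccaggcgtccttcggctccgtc
The match began 34 bases before the GCLM start, read on the strand opposite to the gene, and 99 bases before the TXNRD1 start, on the strand of the gene. A match describes these letters and not a bound site, elements further away were not searched, and no other motif was compared with it. The windows of BACH1 (chr21:29304954-29305203), NFE2L2 (chr2:177264132-177264381) and GCLC (chr6:53545102-53545351) lie well inside the spans of those genes given below. Those of KEAP1 and NQO1 lie inside their spans too, close to the outer end. For these genes the outer start was not searched.

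Values below are normalised counts recovered from the deposited table. Changes are differences of log2(normalised count + 60) with their standard error (SE), where 60 is close to 1 CPM, and adjusted p-values come from limma on the deposited scale with Benjamini-Hochberg adjustment over all 12721 genes and a threshold of 0.05. Counts of genes with different lengths are not compared with each other. A change in a bulk sample cannot tell fewer expressing cells from less RNA per cell.

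HMOX1 (ENSG00000100292.17, chromosome 22, 35380361 to 35394214, GRCh38) was high in the AU-15330 libraries at 24 h and in no others. At 24 h it stood at 1553, 1388 and 1335 normalised counts under AU-15330 and at 191.3, 208.1 and 157.3 under DMSO. At 8 h it stood at 328.0, 330.2 and 421.9 under AU-15330 and at 324.2 and 308.8 under DMSO. The lowest AU-15330 library at 24 h was thus above every library of the other 3 groups, while at 8 h replicates 1 and 2 of AU-15330 lay just above DMSO and replicate 3 was higher. The group means were 185.6 ± 25.9 (SD, n = 3) for DMSO at 24 h, 316.5 ± 10.9 (n = 2) for DMSO at 8 h, 360.0 ± 53.6 (n = 3) for AU-15330 at 8 h and 1425 ± 114 (n = 3) for AU-15330 at 24 h, and in this order the middle pair did not differ by more than its spread. The change was 2.60 ± 0.111 (SE) at 24 h, a ratio of means of 7.68, and 0.15 ± 0.124 at 8 h. By that change HMOX1 ranked 4 of the 12721 genes at 24 h and 3988 at 8 h. The 8 h value was 0.30 after quantile normalisation, and without AU-15330 replicate 3 it was 0.05.

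The baseline of HMOX1 was not level. In DMSO it was lower at 24 h than at 8 h, with a change of -0.62 ± 0.124, and none of the 3 libraries at 24 h reached the lower of the 2 at 8 h. No test is given, since the DMSO libraries at 24 h took part in the choice of HMOX1. Of the other 9 genes 1 was called in that comparison, where 10.1% of all genes were (6.56% higher and 3.56% lower). It was FTH1, with a change of -0.25 ± 0.0641 (adjusted p = 0.033, limma), and the call was lost without any 1 of the 5 DMSO libraries (adjusted p 0.07 to 0.194). On log2(CPM + 1) the calls over all genes split into 631 higher and 626 lower, against 834 and 453 on the deposited scale.

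**Figure D1:**
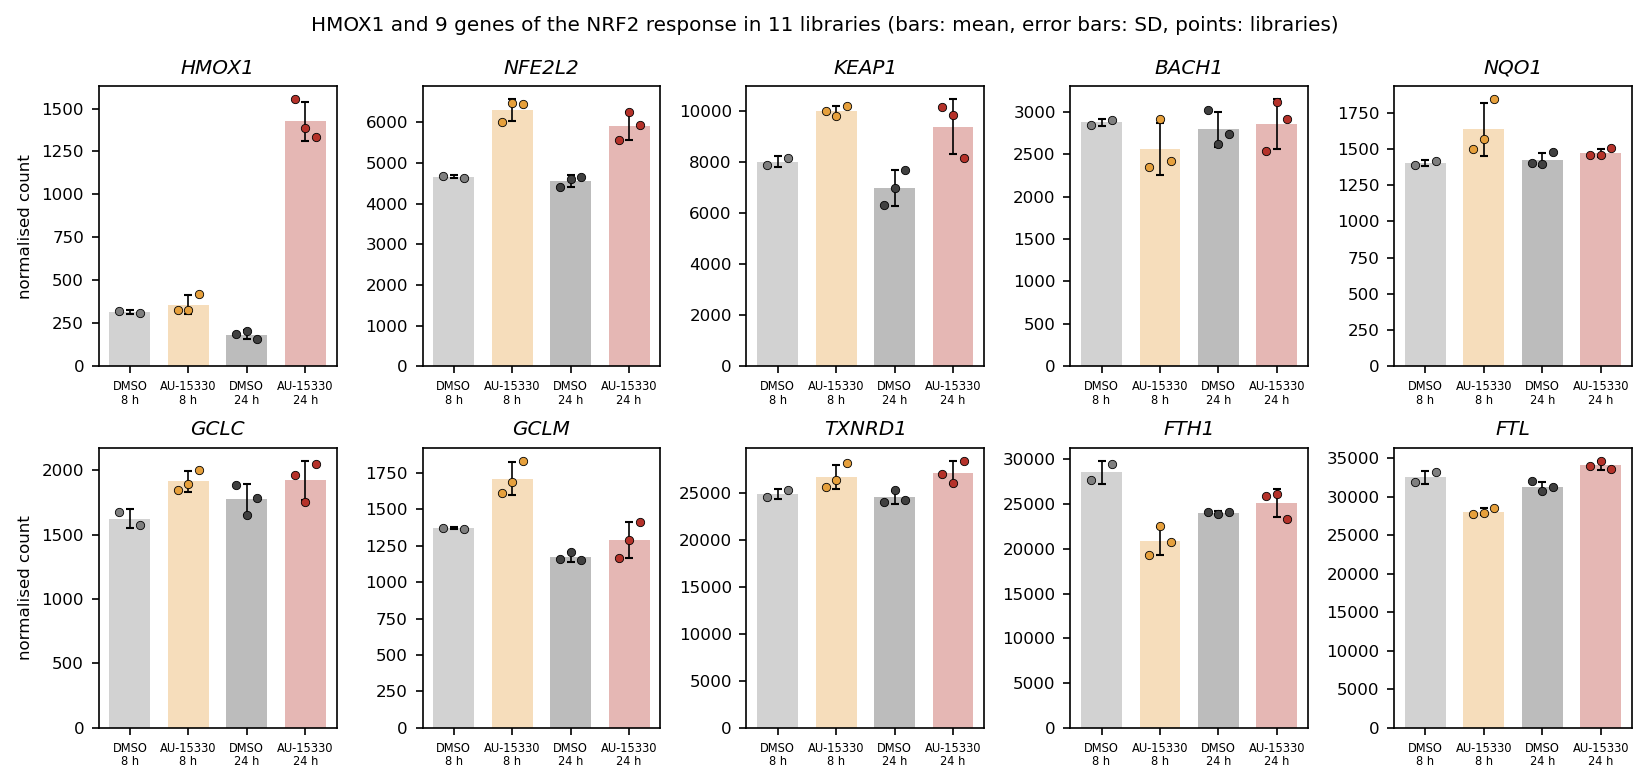
Normalised counts (y axes, from 0) of HMOX1 and 9 genes of the NRF2 response in each group (x axes). Points are libraries, bars are means and error bars are SD, with n = 2 for DMSO at 8 h and n = 3 elsewhere. HMOX1 at 24 h under AU-15330 lies at 1335 to 1553, while the other genes move within much narrower bands.

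Among the other 9 genes, 6 (66.7%) were called at 8 h, 4 higher (NFE2L2, KEAP1, GCLC and GCLM) and 2 lower (FTH1 and FTL), against a background of 44.2% of all genes called (22.9% higher and 21.4% lower). At 24 h 4 were called, all higher (NFE2L2, KEAP1, TXNRD1 and FTL), a share of 44.4% against 50.9% of all genes (24.7% higher and 26.2% lower). That split depends on the scale. The 24 h calls over all genes were 3146 higher and 3330 lower on the deposited scale, but 3883 and 2869 on log2(CPM + 1). The median change of the 9 genes was 0.21 at 8 h and 0.12 at 24 h, and that of all genes tested was 0.02 and 0.01. Libraries of the 2 groups did not overlap for 8 of the 9 genes at 8 h and for 4 of 9 at 24 h, where 62.5% and 59.0% of all genes did not. None of the 9 moved by as much as 1.5-fold at either time. With replicate 1 of DMSO left out at 8 h, 2 of the 4 higher calls at that time were left.

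Of the regulators, NFE2L2 mRNA rose early and stayed up. NFE2L2 (chromosome 2, 177227595 to 177392697) stood at 6001, 6469 and 6444 normalised counts under AU-15330 at 8 h and at 4693 and 4644 under DMSO. NFE2L2 at 24 h stood at 5568, 6254 and 5930 under AU-15330 and at 4405, 4606 and 4668 under DMSO. No AU-15330 library overlapped with DMSO at either time. The rise was 0.43 ± 0.0547 at 8 h, which is 1.35-fold (adjusted p = 8.8e-05, limma), and 0.37 ± 0.0489 at 24 h, which is 1.29-fold (adjusted p = 8.7e-05). The test of the difference between the times gave -0.06 ± 0.0734 (adjusted p = 0.625).

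KEAP1, the adaptor that marks NRF2 for degradation, rose with it. KEAP1 (chromosome 19, 10486120 to 10503741) stood at 9972, 9785 and 10184 normalised counts under AU-15330 at 8 h and at 7862 and 8155 under DMSO. KEAP1 at 24 h stood at 10133.5, 9835 and 8163 under AU-15330 and at 6292, 6979 and 7677 under DMSO. The groups did not overlap at either time, although AU-15330 replicate 3 at 24 h lay near the DMSO range. The change was 0.32 ± 0.0919 at 8 h (adjusted p = 0.015, limma) and 0.42 ± 0.0822 at 24 h (adjusted p = 0.00131). The 8 h call was lost without DMSO replicate 1 (0.29, adjusted p = 0.0886).

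BACH1, the repressor, did not pass the test at either time. BACH1 (chromosome 21, 29194071 to 29630751) stood at 2349, 2908 and 2423 normalised counts under AU-15330 at 8 h, with DMSO at 2845 and 2906. BACH1 at 24 h stood at 2530, 3111 and 2908, with DMSO at 3021, 2618 and 2742. The groups overlapped at both times, and AU-15330 replicate 2 was the highest of its group in each. The change was -0.17 ± 0.103 at 8 h (95% interval -0.40 to 0.06, not adjusted for the number of genes, adjusted p = 0.211 in limma) and 0.03 ± 0.0921 at 24 h (-0.18 to 0.23, adjusted p = 0.831). Without AU-15330 replicate 2 the 8 h change was -0.26 and passed (adjusted p = 0.0498). These are mRNA values and do not measure how much BACH1 or NRF2 protein was bound to DNA.

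**Figure D2:**
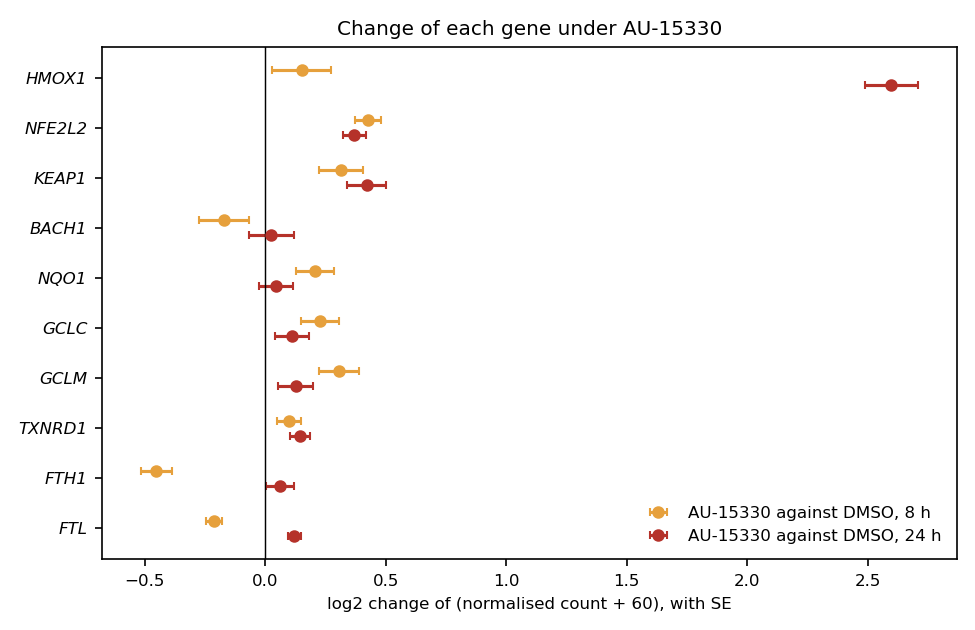
Change of each gene under AU-15330 against DMSO of the same time (x axis, difference of log2(normalised count + 60), bars are SE) at 8 h and 24 h. HMOX1 stands at 2.60 at 24 h, and every other gene lies between -0.45 and 0.43.

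The 6 target genes besides HMOX1 changed little at 24 h. Their changes lay between 0.05 and 0.14, or 1.03-fold to 1.11-fold, and the highest upper bound of their 95% intervals was 0.29, or 1.22-fold. Only TXNRD1 and FTL passed the test, and only for these 2 did the AU-15330 and DMSO libraries not overlap. At 8 h the range was wider, from -0.45 for FTH1 to 0.31 for GCLM.

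NQO1, GCLC and GCLM are commonly used as readouts of the pathway, and NQO1 encodes a quinone reductase. NQO1 (chromosome 16, 69706996 to 69726951) stood at 1497, 1566 and 1841 normalised counts under AU-15330 at 8 h and at 1389 and 1417 under DMSO. NQO1 at 24 h stood at 1455, 1455 and 1505 under AU-15330 and at 1403, 1394 and 1477 under DMSO. The 8 h groups did not overlap, with replicate 3 well above the others, and the 24 h groups did. The change was 0.21 ± 0.0798 at 8 h (adjusted p = 0.0552, limma) and 0.05 ± 0.0714 at 24 h (95% interval -0.11 to 0.20, adjusted p = 0.634). The 8 h value passed without AU-15330 replicate 1 (0.27, adjusted p = 0.0224), and also after quantile normalisation (adjusted p = 0.0358) or centring of library medians (adjusted p = 0.0478).

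GCLC and GCLM encode the catalytic and modifier subunits of glutamate-cysteine ligase, the rate-limiting enzyme of glutathione synthesis. GCLC (chromosome 6, 53497341 to 53616970) stood at 1845, 1888 and 2002 normalised counts under AU-15330 at 8 h and at 1676 and 1571 under DMSO. GCLC at 24 h stood at 1964, 1752.5 and 2045 under AU-15330 and at 1884.5, 1650 and 1781 under DMSO. The groups were apart at 8 h and overlapped at 24 h. The change of GCLC was 0.23 ± 0.0786 at 8 h (adjusted p = 0.0365, limma) and 0.11 ± 0.0703 at 24 h (95% interval -0.04 to 0.27, adjusted p = 0.206). The GCLC call at 8 h rested on single libraries, since it was lost without either DMSO library (adjusted p = 0.0649 and 0.193) and without AU-15330 replicate 2 or 3 (0.0608 and 0.103).

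GCLM (chromosome 1, 93885205 to 93909456), whose promoter is printed above, had the largest 8 h rise of the 6 targets. It stood at 1613, 1684.5 and 1831 normalised counts under AU-15330 at 8 h and at 1374 and 1366 under DMSO. GCLM at 24 h stood at 1162, 1288 and 1414 under AU-15330 and at 1156, 1208 and 1152 under DMSO. The 8 h libraries were apart, while at 24 h the lowest AU-15330 library fell among the DMSO ones. The change was 0.31 ± 0.0823 at 8 h (adjusted p = 0.00856, limma) and 0.13 ± 0.0736 at 24 h (95% interval -0.04 to 0.29, adjusted p = 0.19). The difference between the times was -0.18 ± 0.11 and did not pass (adjusted p = 0.248), so a loss of the rise is not shown.

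TXNRD1 encodes the cytosolic thioredoxin reductase, a selenoprotein that keeps thioredoxin reduced, and its promoter is the second of the printed pair. TXNRD1 (chromosome 12, 104215779 to 104350305) stood at 25679, 26397 and 28218 normalised counts under AU-15330 at 8 h and at 24597 and 25351 under DMSO. TXNRD1 at 24 h stood at 27041, 26057 and 28463 under AU-15330 and at 24065, 25324 and 24332 under DMSO. The groups did not overlap at either time, by a small margin at 8 h. The change was 0.10 ± 0.0478 at 8 h (adjusted p = 0.119, limma) and 0.14 ± 0.0428 at 24 h, which is 1.11-fold (adjusted p = 0.0151). The 24 h call was lost without DMSO replicate 1 (adjusted p = 0.0542) or AU-15330 replicate 3 (adjusted p = 0.0585).

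The ferritin genes moved the other way at first. FTH1 and FTL encode the heavy and light chains of ferritin, which stores the iron that heme oxygenase and other routes release. Besides NRF2, iron regulatory proteins control both chains through translation, which an mRNA level does not show. FTH1 (chromosome 11, 61959718 to 61967660) stood at 19332.5, 22536 and 20730.1 normalised counts under AU-15330 at 8 h and at 27641.5 and 29447 under DMSO. FTH1 at 24 h stood at 25939.8, 26155 and 23302 under AU-15330 and at 24105, 23886 and 24126 under DMSO. At 8 h every AU-15330 library was below DMSO, and at 24 h the groups overlapped. FTH1 fell by 0.45 on the log2 scale at 8 h (SE 0.0641, 0.731-fold, adjusted p = 0.000173 in limma), and the 24 h change was 0.06 ± 0.0574 (adjusted p = 0.392). After quantile normalisation the 24 h change was 0.17 and passed (adjusted p = 0.0298).

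FTL (chromosome 19, 48965301 to 48966878) stood at 27808, 27874 and 28627 normalised counts under AU-15330 at 8 h and at 31996 and 33187 under DMSO. FTL at 24 h stood at 34033, 34694 and 33585 under AU-15330 and at 32035, 30771.5 and 31265.5 under DMSO. No libraries overlapped at either time, with AU-15330 below DMSO at 8 h and above it at 24 h. FTL fell by 0.21 at 8 h (SE 0.0318, 0.863-fold, adjusted p = 0.000265 in limma) and rose by 0.12 ± 0.0284 at 24 h (1.09-fold, adjusted p = 0.00414).

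The test of the difference between the 8 h and 24 h effects passed for both ferritin chains, at 0.52 ± 0.086 for FTH1 (adjusted p = 0.00236, limma) and 0.33 ± 0.0427 for FTL (adjusted p = 0.00052), and for none of the other 7 tested genes, where 18.5% of all genes passed. Over all genes those calls were 959 higher and 1399 lower on the deposited scale but 1306 higher and 898 lower on log2(CPM + 5), and both ferritin calls held on each scale. The ratio of FTH1 to FTL counts, not corrected for length, was 0.864 and 0.887 in DMSO at 8 h and 0.695 to 0.809 under AU-15330. At 24 h it was 0.752 to 0.776 in DMSO and 0.694 to 0.762 under AU-15330, so the 24 h ranges overlapped. Ferritin genes have many processed copies. The 8 entries of FTH1 copies in the table summed to 0.278% of the FTH1 count, and none of the copies passed the filter.

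Other NRF2 targets were called in both directions. Of 27 tested genes of a list of such targets without the 7 above, 5 were higher, 12 lower and 10 not past the threshold at 8 h (median -0.11), and 10 were higher, 12 lower and 5 not past it at 24 h (median -0.04). Called were thus 63.0% at 8 h and 81.5% at 24 h, against the 44.2% and 50.9% of all genes, and the medians of all genes were 0.02 and 0.01. The 5 higher at 8 h became 3 without the DMSO library of replicate 2 or 3. SRXN1, which encodes sulfiredoxin, the enzyme that repairs overoxidised peroxiredoxins, rose at both times, by 0.52 ± 0.0678 at 8 h (adjusted p = 0.000117, limma) and 0.84 ± 0.0606 at 24 h (5.77e-07). It stood at 2621, 2383.5 and 2339.8 normalised counts under AU-15330 at 24 h and at 1414, 1302 and 1310.1 under DMSO. SLC7A11, the cystine carrier subunit of system xc-, stood at 1369, 1569.6 and 1623 under AU-15330 at 24 h and at 657.4, 708.9 and 604.0 under DMSO. SLC7A11 rose by 1.14 ± 0.14 at 24 h (adjusted p = 2.59e-05, limma), and at 8 h the change was 0.35 ± 0.157 (adjusted p = 0.102) and passed without AU-15330 replicate 2 (0.51, adjusted p = 0.0137). OSGIN1, another target of the list, rose by 0.85 at 24 h from a mean of 38.7 to 117.5 normalised counts (adjusted p = 0.00014), and was 0.00 at 8 h (adjusted p = 0.987). At such low counts the pseudocount sets the size of the 24 h change, which was 1.65 for OSGIN1 with a pseudocount of 1 and 0.30 with one of 300, and the ratio of its means was 3.03.

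Lower NRF2 targets included enzymes of glutathione conjugation and of the pentose phosphate pathway. GSTP1, a glutathione transferase, fell by 0.17 at 8 h (adjusted p = 0.00157, limma) and by 0.70 at 24 h (adjusted p = 8.98e-09). At 24 h it stood at 34887, 35378 and 35544 normalised counts under AU-15330 and at 57469, 55809 and 58177 under DMSO, with no overlap. PGD, an NADPH-forming step of the pentose phosphate pathway, fell by 0.76 at 8 h (adjusted p = 3.26e-08) and 0.47 at 24 h (2.24e-07). TALDO1, a transaldolase of the same pathway, fell by 0.35 at 8 h (adjusted p = 5.49e-05) and 0.58 at 24 h (2.33e-07). Of the 14 tested genes of a list of NADPH supply, 3 were higher and 7 lower at 8 h, and 4 were higher and 9 lower at 24 h. That is 71.4% and 92.9% called, against 44.2% and 50.9% of all genes, with medians of -0.20 and -0.32. IDH2 and NNT, mitochondrial sources of NADPH, fell by 0.34 and 0.49 at 8 h and by 0.71 and 0.76 at 24 h (adjusted p at most 1.75e-05).

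Among 17 partners and regulators of NRF2, 2 were higher and 6 lower at 8 h, and 3 were higher and 7 lower at 24 h. That is 47.1% and 58.8% called, near the 44.2% and 50.9% of all genes, with medians of 0.04 and 0.00. The 2 higher at 8 h became 0 without DMSO replicate 1 and 1 without AU-15330 replicate 2. BACH2, a relative of BACH1 that acts in B cells, fell by 0.98 ± 0.11 at 8 h (adjusted p = 0.0001, limma) and by 1.25 ± 0.0987 at 24 h (9.08e-07). It stood at 946.6, 1054 and 1166 normalised counts under AU-15330 at 24 h and at 2651, 2264 and 2879 under DMSO. The DMSO level of BACH2 was itself higher at 24 h than at 8 h, by 0.85 ± 0.11 (adjusted p = 0.000534, limma). NFE2L3, a relative of NRF2, fell by 0.41 and 0.61, and AMER1, which binds KEAP1, by 0.56 and 0.48 (adjusted p at most 0.000351). SQSTM1, encoding the p62 cargo receptor that takes KEAP1 to autophagy, fell by 0.21 at 8 h (adjusted p = 0.00841) and rose by 0.36 at 24 h (6.2e-05). Its 8 h call was lost without the DMSO library of replicate 2 or 3 (adjusted p = 0.092). Of the small MAF genes, MAFG fell by 0.65 at 8 h (adjusted p = 3.68e-06) and 0.18 at 24 h (0.00975), MAFK was -0.30 and -0.33, and MAFF rose by 0.60 at 24 h from a mean of 42.5 to 95.5 normalised counts (adjusted p = 0.000484). The MAFF change at 24 h was 1.15 with a pseudocount of 1 and 0.21 with one of 300, and the ratio of its means was 2.24. The MAFK call at 8 h was lost without the DMSO library of replicate 2 or 3, where the change was -0.14. The MAFG call at 24 h was lost after quantile normalisation (adjusted p = 0.051, limma). That MAFG call was also lost on log2(CPM + 1) (adjusted p = 0.0541) and log2(CPM + 5) (0.0537).

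**Figure D3:**
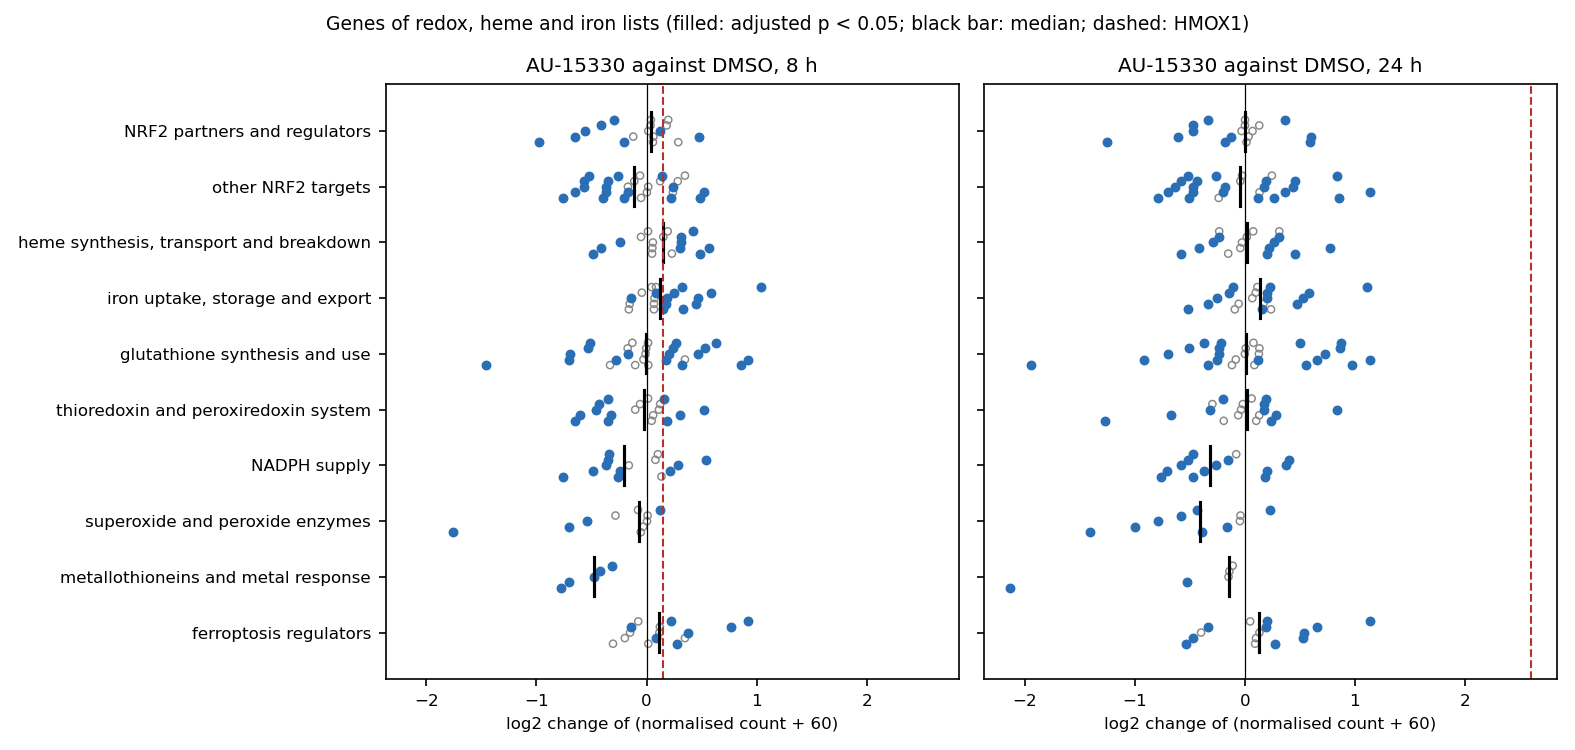
Change under AU-15330 (x axes, difference of log2(normalised count + 60)) of each tested gene of 10 lists of redox, heme and iron genes (rows) at 8 h and 24 h. Filled points passed the threshold, black bars are list medians and the dashed line is HMOX1. On this scale the highest list gene at 24 h stands at 1.14, well left of HMOX1 at 2.60.

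Of 17 tested genes of heme synthesis, transport and breakdown, 6 were higher and 3 lower at 8 h, and 6 were higher and 4 lower at 24 h. The shares called, 52.9% and 58.8%, lay within 10 percentage points of those of all genes, and the medians were 0.15 and 0.02. HMOX2, the constitutive heme oxygenase, had a change of 0.31 ± 0.0993 at 8 h (adjusted p = 0.0211, limma), which was lost without DMSO replicate 1 (adjusted p = 0.144) or AU-15330 replicate 1 at 8 h (0.0657). At 24 h the change of HMOX2 was -0.03 ± 0.0888 (adjusted p = 0.813, limma), and that of BLVRB, biliverdin reductase B, was -0.04 ± 0.0689 (adjusted p = 0.633). HMOX2 has 2 entries in the table, of which that with the higher mean was used, so its level is uncertain. SLC48A1, which carries heme out of endolysosomes, rose by 0.57 ± 0.0928 at 8 h (adjusted p = 0.000384) and 0.77 ± 0.083 at 24 h (1.26e-05). FECH, which inserts iron into heme in the last step of its synthesis, rose by 0.49 and 0.46, and CLPX, a mitochondrial unfoldase that acts on ALAS enzymes, by 0.31 and 0.26. PGRMC1, a heme-binding membrane protein, fell by 0.49 and 0.42 (adjusted p at most 0.000121 for these 3 genes at both times).

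Of 20 tested genes of iron uptake, storage and export, 11 were higher and 1 lower at 8 h, and 8 were higher and 5 lower at 24 h. That is 60% and 65% called, against 44.2% and 50.9% of all genes, with medians of 0.12 and 0.14. The 11 higher became 5 without either DMSO library, 7 without AU-15330 replicate 2 and 6 without replicate 3. The 1 lower at 8 h, NCOA4, became 0 without any 1 of 7 libraries (each of the 5 DMSO libraries and AU-15330 replicates 1 and 2 at 8 h), and the 5 lower at 24 h became 3 without any 1 of the 24 h libraries except DMSO replicate 2. ISCU, the scaffold on which iron-sulfur clusters form, rose by 1.04 ± 0.0355 at 8 h (adjusted p = 4.78e-09, limma) and 1.11 ± 0.0318 at 24 h (4.1e-10). ISCU stood at 24 h at 13160.1, 13320.3 and 13459.9 normalised counts under AU-15330 and at 6140.0, 6135 and 6109 under DMSO. TFRC, the transferrin receptor, rose by 0.52 ± 0.027 at 24 h (3.77e-08). NCOA4, which carries ferritin to autophagy, fell by 0.34 at 24 h (adjusted p = 8.77e-05, limma), and SLC39A8, a metal importer, by 0.52 (9.55e-06). SLC39A8 was also higher in DMSO at 24 h than at 8 h, by 0.32 (adjusted p = 0.00538). At 8 h TFRC was 0.08 and NCOA4 -0.14, and both calls there were lost under several alternatives, with adjusted p-values of up to 0.227 and 0.13.

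Glutathione and thioredoxin genes were called in both directions. Of 27 tested genes of glutathione synthesis and use, 10 were higher and 7 lower at 8 h, and 9 were higher and 10 lower at 24 h. The shares called were 63.0% and 70.4%, against 44.2% and 50.9% of all genes. The 10 higher at 8 h became 6 without DMSO replicate 1. GSS, the second enzyme of glutathione synthesis, rose by 0.63 ± 0.075 at 8 h (adjusted p = 3.15e-05, limma) and 0.98 ± 0.0671 at 24 h (2.6e-07), and SLC3A2, the partner chain of SLC7A11, by 0.53 and 0.73 (adjusted p at most 1.55e-06). GLRX, glutaredoxin 1, fell by 1.46 ± 0.0872 at 8 h (9.31e-08) and 1.95 ± 0.078 at 24 h (2.2e-09). It stood at 655.3, 687.3 and 750.4 normalised counts under AU-15330 at 24 h and at 2872, 2825.5 and 2871 under DMSO. Of 18 tested genes of the thioredoxin and peroxiredoxin system, 4 were higher and 7 lower at 8 h, and 6 were higher and 4 lower at 24 h. The shares called were 61.1%, and at 24 h 55.6%, which is near the 50.9% of all genes. The 4 higher at 8 h became 2 without DMSO replicate 1 or AU-15330 replicate 1. PRDX2, a cytosolic peroxiredoxin, fell by 0.60 and 1.27, PRDX6 fell by 0.32 at both times, and PRDX5 rose by 0.31 and 0.28 (adjusted p at most 0.000123).

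Of 15 tested ferroptosis regulators, 6 were higher and 1 lower at 8 h, and 7 were higher and 3 lower at 24 h, or 46.7% and 66.7% called against 44.2% and 50.9% of all genes. The 1 lower at 8 h is NCOA4 again. GPX4, which reduces lipid peroxides, had a change of 0.02 ± 0.0617 at 8 h (adjusted p = 0.86, limma) and rose by 0.65 ± 0.0552 at 24 h (2.57e-06). GPX4 stood at 24 h at 6446, 6963 and 5893 normalised counts under AU-15330 and at 4002, 3956 and 4234 under DMSO. Its DMSO mean was lower at 24 h than at 8 h, at 4064 against 5245 (-0.36 ± 0.0617, adjusted p = 0.00544, limma). The superoxide and peroxide list had 1 higher and 3 lower of 10 tested genes at 8 h, and 1 higher and 7 lower at 24 h. The shares called were 40% at 8 h, below the 44.2% of all genes, and 80% at 24 h, above their 50.9%. The medians were -0.07 and -0.41. At each time the 1 higher call was lost when single libraries were left out, 7 of them at 8 h and 4 at 24 h. CYBA, a subunit of the phagocyte NADPH oxidase, fell by 0.70 and 1.41, and RAC2, a GTPase that activates it, by 1.76 and 1.00 (adjusted p at most 1.03e-05, limma). RAC2 was also higher in DMSO at 24 h than at 8 h, by 0.61 (adjusted p = 0.00563). NCF4, another oxidase subunit with 2 entries in the table and so an uncertain level, fell by 0.54 and 0.79 (adjusted p at most 0.00473) with ratios of means of 0.608 and 0.494, and CAT, catalase, fell by 0.43 at 24 h (3.36e-05) after -0.03 at 8 h (0.685).

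Metallothioneins bind zinc and copper and often rise with HMOX1 under metal or oxidant stress. Here none of the 5 tested genes of a metallothionein and metal response list was higher at either time. At 8 h 5 were lower (3 after quantile normalisation), or 100% called against 44.2% of all genes. At 24 h 2 were lower (40% called, below the 50.9% of all genes). MT1E stood at 20.9, 21.2 and 18.8 normalised counts under AU-15330 at 24 h and at 317.3, 268.3 and 293.0 under DMSO. Its change was -2.13 ± 0.133 at 24 h (adjusted p = 6.68e-07, limma) and -0.78 ± 0.149 at 8 h (0.00144). MT1E counts are low, so the size of the 24 h change depends on the pseudocount, with -3.79 for a pseudocount of 1 and -0.89 for one of 300, and the ratio of means was 0.0693. At 8 h that ratio was 0.506, and without the DMSO library of replicate 2 or 3 the change of MT1E was -0.52. MT2A, with ratios of means of 0.705 and 0.632, fell by 0.42 at 8 h (adjusted p = 0.0146) and 0.53 at 24 h (0.00278), and its 8 h call was lost without the DMSO library of replicate 2 or 3 (adjusted p = 0.145). SLC30A1, a zinc exporter induced by the same metal sensor, fell by 0.71 at 8 h (adjusted p = 0.000346), and at 24 h was -0.14 (0.186). MTF1, that sensor, fell by 0.48 at 8 h (adjusted p = 0.0131, but 0.159 without DMSO replicate 1), and at 24 h was -0.15 (0.325).

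Over all 10 lists with each gene once, 43 of 151 tested genes were higher and 44 lower at 8 h, and 45 were higher and 55 lower at 24 h, so that 57.6% and 66.2% were called, against 44.2% and 50.9% of all genes. The lists were drawn up with earlier results of these data known and are not independent evidence of a direction. No tested list gene rose by as much as HMOX1 at 24 h. On log2(normalised count + 60) the highest change was the 1.14 of SLC7A11, and by the ratio of means it was the 3.03 of OSGIN1, ahead of the 2.32 of SLC7A11 and the 2.24 of MAFF, with HMOX1 at 7.68.

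The genes whose pattern was most like that of HMOX1 were sought over the 11 libraries on log2(normalised count + 60). As HMOX1 was chosen for its rise, this is a description, and the libraries share treatment and time, so no p is given. The 6 highest Pearson correlations were those of TFRC (r = 0.9897), RAB42 (0.9755), RCOR2 (0.9722), PRX (0.9721), REEP2 (0.9718) and PHTF1 (0.971). TFRC, which brings transferrin-bound iron into the cell, stood at 41204, 42843 and 41597 normalised counts under AU-15330 at 24 h and at 29464, 29309.6 and 28496 under DMSO. At 8 h it stood at 32279.5, 33120.3 and 33194 under AU-15330 and at 31042 and 30948 under DMSO. As with HMOX1, DMSO at 24 h was lowest and AU-15330 at 24 h stood alone, but the span was smaller, with a change of 0.52 against 2.60. RCOR2, a corepressor related to CoREST, had means of 1587 in DMSO and 3096 under AU-15330 at 24 h, and REEP2, an endoplasmic reticulum shaping protein, of 148.5 and 437.5. RAB42 and PRX were low, with means of 37.7 and 35.5 in DMSO and 149.4 and 150.1 under AU-15330 at 24 h.

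**Figure D4:**
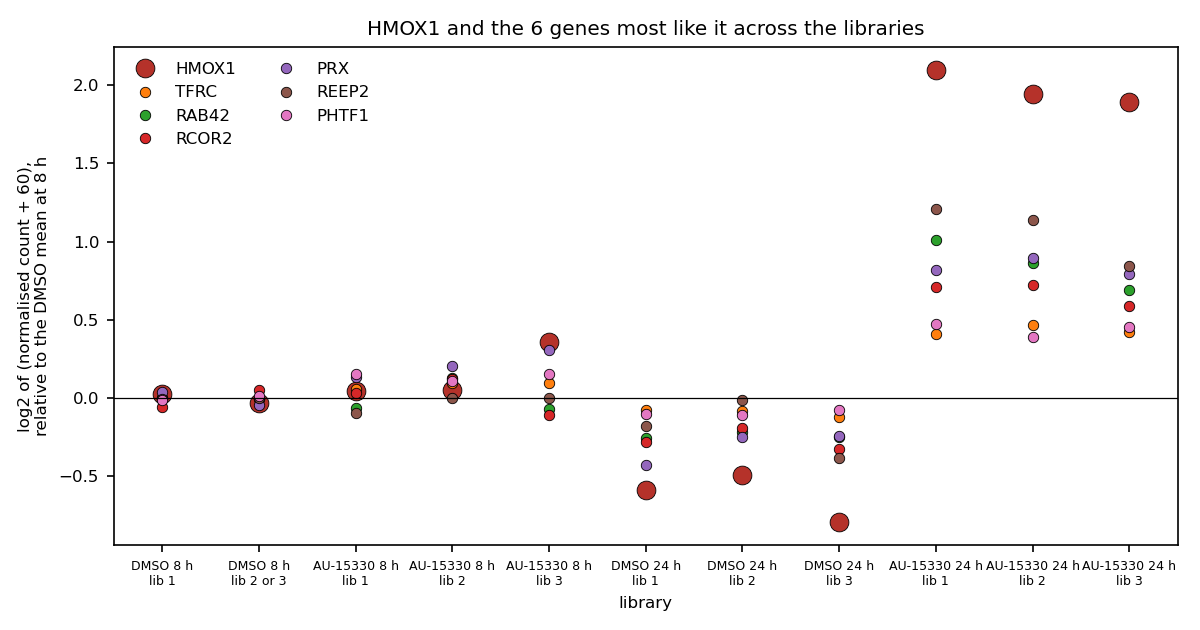
HMOX1 and the 6 genes with the highest Pearson correlation with it, in each of the 11 libraries (x axis), as log2(normalised count + 60) relative to the DMSO mean at 8 h (y axis). All 7 genes are highest in the 3 AU-15330 libraries at 24 h, where HMOX1 lies above the others.

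Cell type markers were read for the same libraries, since macrophages can express much HMOX1. All 8 markers of B cells and mantle cell lymphoma were present, with a summed level of 3120 to 4090 CPM over all libraries (4050 to 4090 in DMSO and 3400 to 3530 under AU-15330 at 24 h). Most of them fell. At 8 h 5 of 8 were lower and 0 higher (median -1.17), and at 24 h 6 were lower and 1 higher (median -1.50). That is 62.5% and 87.5% called, against 44.2% and 50.9% of all genes (21.4% and 26.2% lower). The 24 h changes ran from -2.42 for CD22 to 1.15 for SOX11, while CCND1 was -0.04 and -0.01. What part the fall of these markers has in the HMOX1 result was not tested. Of 10 myeloid markers, 5 were in the table (CSF1R, S100A8, S100A9, MPO and FCGR3A were not among its entries), and 1, CD68, passed the filter. Their summed level at 24 h was 1.99 to 2.49 CPM in DMSO and 3.50 to 4.58 CPM under AU-15330, and at 8 h 2.01 to 2.23 and 2.42 to 2.67 CPM. CD68 rose by 1.04 ± 0.108 at 24 h (adjusted p = 1.6e-05, limma), from 69.5, 78.2 and 67.0 to 243.1, 203.4 and 188.0 normalised counts, a ratio of means of 2.96, while CD14, LYZ, CD163 and ITGAM had means of 0.04 to 0.25 CPM. CD68 is a lysosomal protein found in other cells too, and its part in the HMOX1 result was not tested. Of 9 erythroid markers 6 were in the table and none passed the filter, with a summed level of at most 0.864 CPM and HBA2 at 0 in all AU-15330 libraries at 24 h. Of 6 T cell markers 5 were in the table and none passed, with a summed level of at most 2.16 CPM (in DMSO at 24 h) and TRAC at 0 in all AU-15330 libraries at 8 h.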

How the data were processed

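RNA of 12 labelled samples was sequenced, and 1 column of the table, a copy of another in name and values, was not used. Kits that select poly(A) RNA or deplete ribosomal RNA are both named in the labels, so the kit of each sample and the strand use in counting are not given in the sources used here. Per the submitters' processing notes, the tools include DESeq2 1.24.0, R 4.3.2, the pseudoaligner kallisto 0.46.1 and Trimmomatic 0.40, and the build is GRCh38.p13. Their order and parameters are not given there.

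The deposited values are on a log2 scale made by the authors. Although the table is named as log CPM, its lowest value is 10.36 in every library, as a variance-stabilising transform gives, and inverting that transform gave the normalised counts. A doubling is worth 0.274 on the deposited scale at 300 normalised counts and 0.852 at 10000, so folds were taken on log2(normalised count + 60), where 59.4 normalised counts equal 1 CPM, and tests on the deposited scale. Only 53.7% to 56.3% of low values lay within 0.02 of a whole count, so no count test was run. Coordinates come from GENCODE release 29 (91.4% of entries matched), promoters from RefSeq.

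One mean per group was fitted over the 12721 genes that reached 1 CPM in 3 or more libraries with limma 3.58.1 (R 4.3.3, variance prior with a mean trend, 7 residual degrees of freedom), with Benjamini-Hochberg adjustment and a threshold of 0.05. The plan had assumed 12 libraries. The procedure was tested on simulated data. Figures were drawn with Matplotlib 3.10.9 and tables built with pandas 2.3.3 in Python 3.11.15.

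The members and gene lists were chosen with earlier results of these data known. Named are the 10 genes, from each list the 4 with the smallest 24 h p and any called gene with at least a 2-fold change at either time, and the 6 genes most correlated with HMOX1. MAFG, MAFF, MAFK, OSGIN1, HMOX2, BLVRB and CD68 were named after their values were seen. Alternatives were other scalings, filters, pseudocounts, variance priors and subsets of libraries.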

Additional observations from a re-analysis of the deposited data

Results flagged for a closer look

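The effect of AU-15330 on both ferritin chains differed between 8 h and 24 h by a test of the difference itself in limma. These were 2 of the 9 tested genes (22.2%), a share near the 18.5% of all genes. For FTH1 the 24 h change exceeded the 8 h change by 0.52 ± 0.086 (SE) on log2(normalised count + 60) (adjusted p = 0.00236), and for FTL by 0.33 ± 0.0427 (adjusted p = 0.00052). The separate changes were -0.45 at 8 h and 0.06 at 24 h for FTH1, and -0.21 and 0.12 for FTL. With each library left out in turn the difference stayed between 0.46 and 0.57 for FTH1 (highest adjusted p 0.0149) and between 0.31 and 0.36 for FTL (highest adjusted p 0.00353). In DMSO alone the mean of FTH1 went from 28544 normalised counts at 8 h to 24039 at 24 h, a change of -0.25. Under AU-15330 it went from 20866 to 25132. The FTH1 difference thus holds a fall in DMSO as well as a rise under AU-15330. Each time is a batch of its own, and the part of drift between batches in it was not tested.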

How the results depend on the processing

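For the 9 tested genes, 822 of 846 recomputed tests over the 4 comparisons kept their side of the threshold, 19 lost the call and 5 gained it, and none that was called changed direction. For the 41 other genes named from the lists this held at 8 h and 24 h for 1902 of 1946, with 42 lost and 2 gained. Both totals include the alternatives with a pseudocount of 1 or 300. Those change only the size of the fold and not the test, so they could not alter a call. The 24 h change of HMOX1 was 2.94 with a pseudocount of 1 and 1.83 with one of 300, and 2.51 to 2.67 with 1 library left out, its 8 h change was 0.30 after quantile normalisation, and its DMSO change was -0.78 and -0.35 with pseudocounts of 1 and 300. Whether replicate numbers pair the samples was not settled, and the main fit did not use them. Deviations from the group means were compared between libraries outside DMSO at 8 h. Same-numbered libraries correlated by only 0.03 to 0.134, but each library correlated best with its own number. A fit with a replicate block, on 10 libraries because 1 has no settled number, gave 1272 genes for the difference between the times (2358 without it on 11 libraries), 431 for DMSO at 24 h against 8 h (1287), 1 of the 9 genes higher at 8 h (4) and 0 of the 9 lower in DMSO (1). The same 10 libraries without the block, an alternative added after seeing the data, gave 1571, 661, 3 and 0. At 8 h the KEAP1, GCLM and GCLC calls were lost with the block (adjusted p 0.113, 0.109 and 0.126), and of these only that of GCLC on the same libraries without it (0.193). Leaving out 1 library gave 662 to 1364 genes for the DMSO comparison, 2 to 5 of the 9 genes higher at 8 h and 0 to 1 of the 9 lower in DMSO. With 1 DMSO library left at 8 h, it is assumed to vary like the other groups. Choosing the primary assembly entry of a repeated symbol changes no member. With few libraries at 8 h, small changes such as that of NQO1 could not be settled.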
